A study of Mus musculus with 3 samples.

Results

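The 4 Hox clusters were examined as 268 regions of histone marking, 53 of H3K27ac and 215 of H3K4me1, out of 93413 and 155027 regions in the 2 peak lists. A region was taken as a member when it overlapped a window around a cluster on the mouse build mm9: chr6:52050000-52270000 for Hoxa, chr11:96000000-96280000 for Hoxb, chr15:102700000-102920000 for Hoxc and chr2:74450000-74660000 for Hoxd. The windows were set by position and not by signal. They span 220, 280, 220 and 210 kb. The chromatin came from hematopoietic stem cells, the bone marrow cells that renew all blood lineages, sorted as SP-KSL-CD150+ cells from C57BL/6 mice aged 24 months. The mice carry no stated mutation or treatment, and no young animals are part of these samples. Each mark was measured by chromatin immunoprecipitation sequencing in 1 library, labelled a technical replicate of biological replicate 1, with an input library that was not analysed here. A single library per mark leaves differences without replicates, and therefore nothing was tested for significance. The cell identity was not checked against marker genes, since no mm9 annotation was used here.

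Hox genes encode homeodomain transcription factors that give cells along the body axis their position. They lie in 4 clusters that arose by duplication, and genes with the same number in different clusters are called paralogs. Within a cluster the genes sit largely in the order of their numbers, with the low numbers active earlier and nearer the head. Trithorax proteins keep Hox genes open and Polycomb proteins keep them shut. In blood, Hoxa9 and Hoxa10 are known as stem and progenitor cell genes and as drivers of leukemia when overactive, and Hoxb4 is known for expanding stem cells. Hoxd13 and its neighbours are best known from limb and digit patterning, and Hoxc13 from hair and nails. H3K27ac marks active promoters and enhancers. H3K4me1 marks enhancers, active or poised, and the borders of active promoters.

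All 38 member genes were found in the RefSeq gene table, which is on the build GRCm38 and was used for the order of the genes and not for their positions. By rising coordinate, the Hoxa cluster runs from Hoxa2 to Hoxa13, whereas Hoxb runs from Hoxb13 to Hoxb1, Hoxc from Hoxc13 to Hoxc4 and Hoxd from Hoxd13 to Hoxd1. In Hoxb and Hoxd long, overlapping gene models of Hoxb3 and Hoxd3 start out of number order in this table, so only the outermost genes were used. A region is therefore placed toward one end of a cluster below, and is not assigned to a gene.

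The clusters also carry microRNAs, which are printed because paired copies with 1 seed sit in clusters that differed in acetylation. In the same table Mir196b lies between Hoxa9 and Hoxa10, Mir196a-1 between Hoxb13 and Hoxb9, and Mir196a-2 between Hoxc10 and Hoxc9. Mir10a lies inside a gene model of Hoxb3, and Mir10b inside gene models of both Hoxd3 and Hoxd4. The mature sequences below are from RefSeq (GRCm38.p6), written 5′ to 3′, with the seed, bases 2 to 8, in capitals.
mmu-miR-196b-5p (Hoxa): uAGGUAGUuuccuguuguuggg
mmu-miR-196a-5p (Hoxb and Hoxc): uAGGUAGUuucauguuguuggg
mmu-miR-10a-5p (Hoxb): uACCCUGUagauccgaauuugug
mmu-miR-10b-5p (Hoxd): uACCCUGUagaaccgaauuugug
The miR-196 seed is thus encoded in Hoxa, Hoxb and Hoxc, and the miR-10 seed in Hoxb and Hoxd.

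Of the 38 genes, 22 had a promoter in the RefSeq promoter table. The table gives 250 bases before to 50 bases after the start. Across 24 Hox entries the median number of CpG dinucleotides was 14.5, against 7 over all 32851 promoters. The median was 17.5 in Hoxa (10 entries, 4 to 45) and 20 in Hoxd (10 entries, 4 to 37), so the ranges of these clusters, one acetylated and one not, overlapped. Hoxb had 3 entries, with a median of 13, and Hoxc 1 entry, with 9, so the Hox median rests largely on Hoxa and Hoxd. The letters TAATTA, a core recognised by many homeodomains, stood on either strand in 2 of the 24, both entries of Hoxd11, against 5.29% of all promoters. TGACAG, a core of the Meis cofactors, stood in Hoxa2 and Hoxa3, against 19.2% of all promoters. The bases before the start are printed for the paralogs Hoxb4, Hoxc4 and Hoxd4, which lie in clusters of unlike acetylation, and for Hoxa9. They are written 5′ to 3′ on the strand of the gene, with CpG in capitals.
Hoxb4: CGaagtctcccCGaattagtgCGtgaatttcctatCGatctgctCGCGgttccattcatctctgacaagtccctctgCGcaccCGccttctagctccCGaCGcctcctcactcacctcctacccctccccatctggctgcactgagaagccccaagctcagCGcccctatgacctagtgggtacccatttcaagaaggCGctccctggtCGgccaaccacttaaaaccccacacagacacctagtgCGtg
Hoxc4: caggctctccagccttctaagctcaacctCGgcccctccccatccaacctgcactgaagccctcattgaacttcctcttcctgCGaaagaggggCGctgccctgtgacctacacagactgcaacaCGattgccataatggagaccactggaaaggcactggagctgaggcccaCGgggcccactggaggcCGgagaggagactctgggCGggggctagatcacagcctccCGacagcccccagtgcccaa
Hoxd4: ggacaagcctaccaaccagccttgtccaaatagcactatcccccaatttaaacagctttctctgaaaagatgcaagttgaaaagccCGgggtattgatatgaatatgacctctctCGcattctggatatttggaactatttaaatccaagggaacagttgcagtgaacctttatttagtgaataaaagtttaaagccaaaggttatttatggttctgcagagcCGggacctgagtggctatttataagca
Hoxa9: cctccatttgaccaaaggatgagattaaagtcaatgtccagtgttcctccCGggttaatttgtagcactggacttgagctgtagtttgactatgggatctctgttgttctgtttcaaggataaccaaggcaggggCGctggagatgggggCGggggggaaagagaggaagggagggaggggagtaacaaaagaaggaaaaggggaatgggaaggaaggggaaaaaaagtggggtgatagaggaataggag
With the 50 bases after the start included, Hoxb4 holds 14 CpG, Hoxc4 9, Hoxd4 4 and Hoxa9 4. Whether a region lay over any of these promoters in mm9 was not examined.

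H3K27ac was found in the Hoxa and Hoxb windows and hardly or not at all in the Hoxc and Hoxd windows. There were 20 H3K27ac regions in Hoxa, 31 in Hoxb, 2 in Hoxc and 0 in Hoxd. Per 100 kb this was 9.09 in Hoxa and 11.1 in Hoxb, against 3.74 over the autosomes and 0.909 in Hoxc. H3K27ac covered 26.7 kb of the Hoxa window (12.2%), 28.1 kb of Hoxb (10.02%) and 0.701 kb of Hoxc (0.319%), against 2.24% of the autosomes. The acetylated windows thus lay above the autosomal level and the other pair below it. The order of Hoxa and Hoxb is not firm. Among regions with a −log10 q of at least 10, Hoxa had 7 and Hoxb 5. Hoxa also had the larger share of its window covered.

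**Figure D1:**
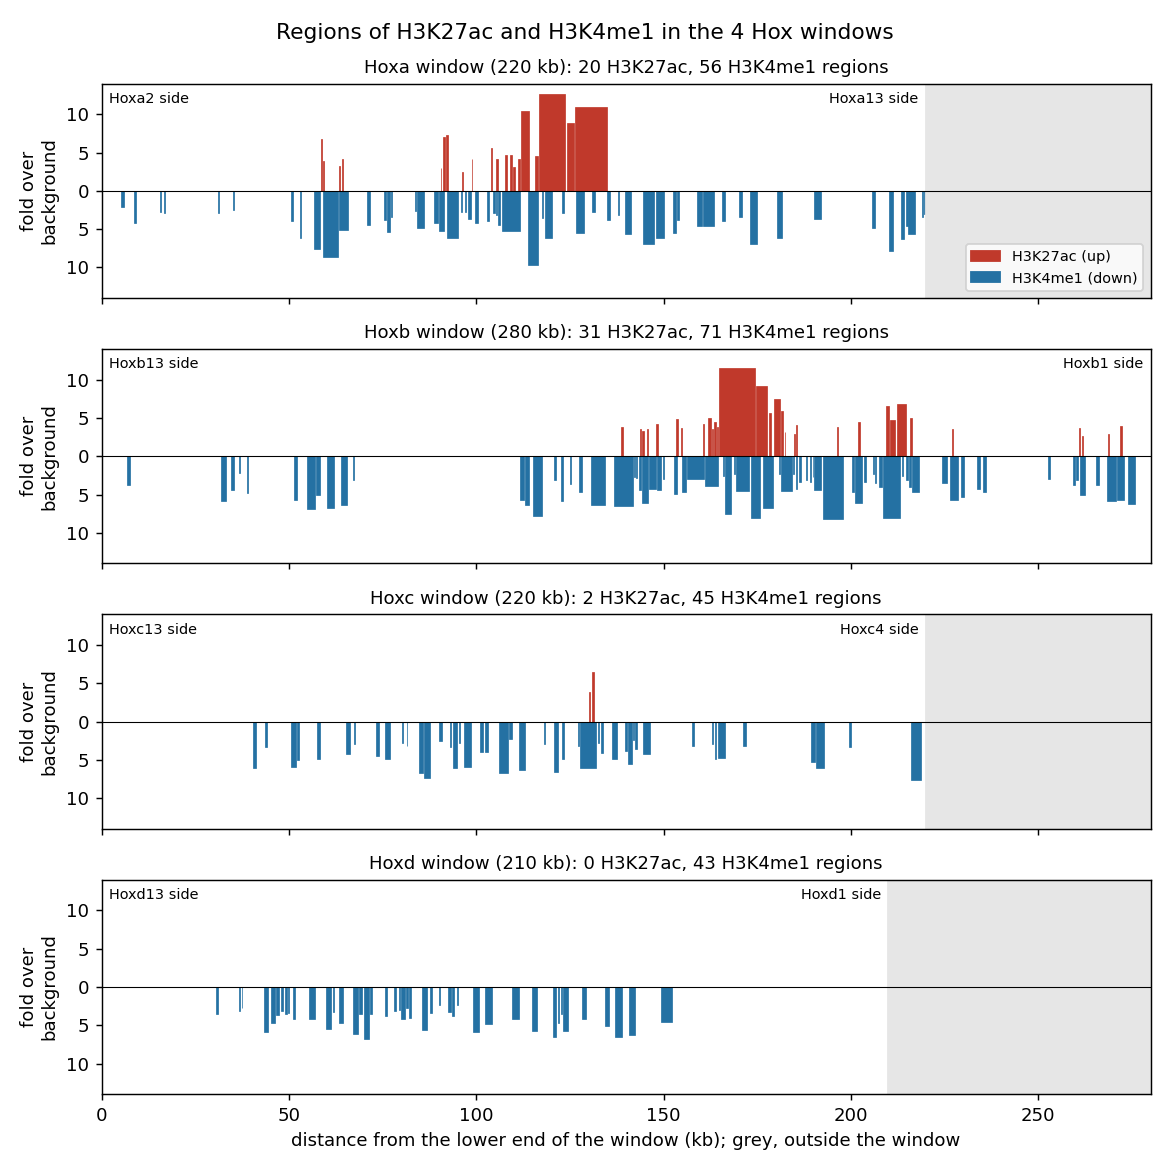
Position (kb from the lower end of each window) and strength (the authors' fold over background) of every H3K27ac region (red, upward) and H3K4me1 region (blue, downward) in the 4 windows, 1 bar per region. H3K27ac stands in a block in Hoxa and Hoxb, as 2 thin bars in Hoxc and nowhere in Hoxd, whereas H3K4me1 is present in all 4.

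H3K4me1 was dense in all 4 clusters. There were 56 H3K4me1 regions in Hoxa, 71 in Hoxb, 45 in Hoxc and 43 in Hoxd. Their density was 25.5, 25.4, 20.5 and 20.5 per 100 kb, against 6.15 over the autosomes. H3K4me1 covered 29.1% of the Hoxa window, 33.2% of Hoxb, 19.8% of Hoxc and 18.5% of Hoxd, against 6.95% of the autosomes. The clusters thus differed far less in H3K4me1 than in H3K27ac. The strength of the H3K4me1 regions was also close across clusters: the median of the authors' fold was 4.21 in Hoxa, 4.42 in Hoxb, 4.23 in Hoxc and 4.12 in Hoxd, against 4.12 over the whole list. The strongest summit fell from 9.69-fold in Hoxa and 8.21-fold in Hoxb to 7.60-fold in Hoxc and 6.74-fold in Hoxd. Regions of 6-fold or more made up 12 of 56 in Hoxa, 15 of 71 in Hoxb, 10 of 45 in Hoxc and 5 of 43 in Hoxd, and 20.7% of the whole list. The Hoxd share, 11.6%, lay below that background and the other 3 shares near it. The Hoxd share rests on 5 regions, and no interval was computed for these shares.

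The edges of the windows were compared with flanks of the same length. The H3K4me1 density in Hoxd was 1.90 and 5.71 per 100 kb in the lower and upper flank, against 20.5 inside, so the density was lower on both sides of the window. Inside the window H3K4me1 began 30.6 kb from the lower edge and ended 57.8 kb before the upper edge. H3K27ac was sparse on both sides, with 1 region in each Hoxd flank, at 12.4-fold and 10.9-fold. Hoxc had 4 H3K27ac regions in its lower flank and 36 in its upper flank, where 15.6% of the length was acetylated and H3K4me1 reached 23.2 regions per 100 kb. The near absence of H3K27ac in Hoxc thus stopped at its upper side, beyond the Hoxc4 end. Hoxa had 14 H3K27ac regions in each flank, covering 5.18% and 3.05%. Hoxb had 5 and 18, covering 2.11% and 3.42%.

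**Figure D2:**
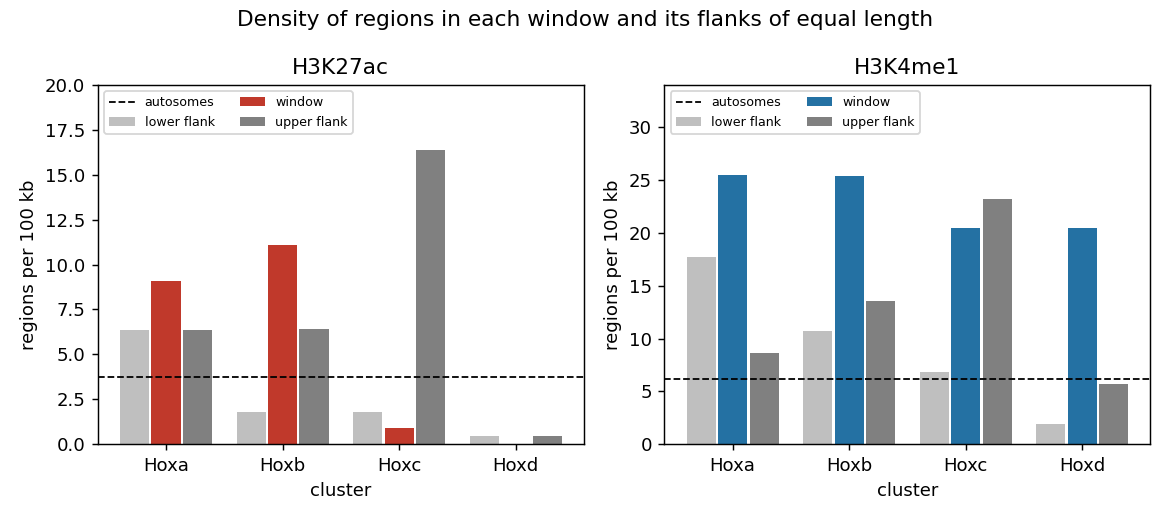
Regions per 100 kb (bars from 0) of H3K27ac (left) and H3K4me1 (right) in each window and in its flanks of equal length, with the autosomal density as a dashed line. All 4 windows stand at 20.5 or more for H3K4me1, and Hoxc and Hoxd lie under the dashed line for H3K27ac.

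No autosomal tile was as rich in H3K4me1 and as poor in H3K27ac as Hoxc or Hoxd. The autosomes were divided into adjoining tiles of each window's length, leaving out tiles that touched a Hox window, as a description of the genome and not a test. Of the 11749 tiles of 210 kb, 28.8% held no H3K27ac region, but none of these held as many as 43 H3K4me1 regions. In the 481 tiles with at least the 43 H3K4me1 regions of Hoxd, the number of H3K27ac regions had a median of 31 (quartiles 23 and 40) and a lowest value of 6, against 0 in Hoxd. In the 454 tiles with at least the 45 H3K4me1 regions of Hoxc the lowest value was 11, against 2 in Hoxc. Hoxa and Hoxb also held fewer H3K27ac regions than most tiles with at least as many H3K4me1 regions. Of 100 tiles with at least the 56 of Hoxa, 4 had 20 or fewer H3K27ac regions. Of 43 tiles with at least the 71 of Hoxb, 1 had 31 or fewer. Tiles richer in H3K4me1 than the window are included, so this is not a comparison at equal H3K4me1.

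By acetylated length the same comparison gave another picture for Hoxa. In the 372 tiles of 220 kb with at least as much H3K4me1 length as Hoxa, a median of 12.8% was acetylated, against 12.2% in Hoxa. In the 129 tiles of 280 kb with as much as Hoxb the median was 14.3%, against 10.02%, and 12 of them had less than Hoxb. In the 1114 tiles with as much as Hoxc the lowest value was 1.46%, and in the 1316 with as much as Hoxd it was 1.41%, against 0.319% and 0. Hoxa thus lay low by number and near the median by length, in different sets of tiles. Hoxc and Hoxd lay under every such tile by number and by length.

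**Figure D3:**
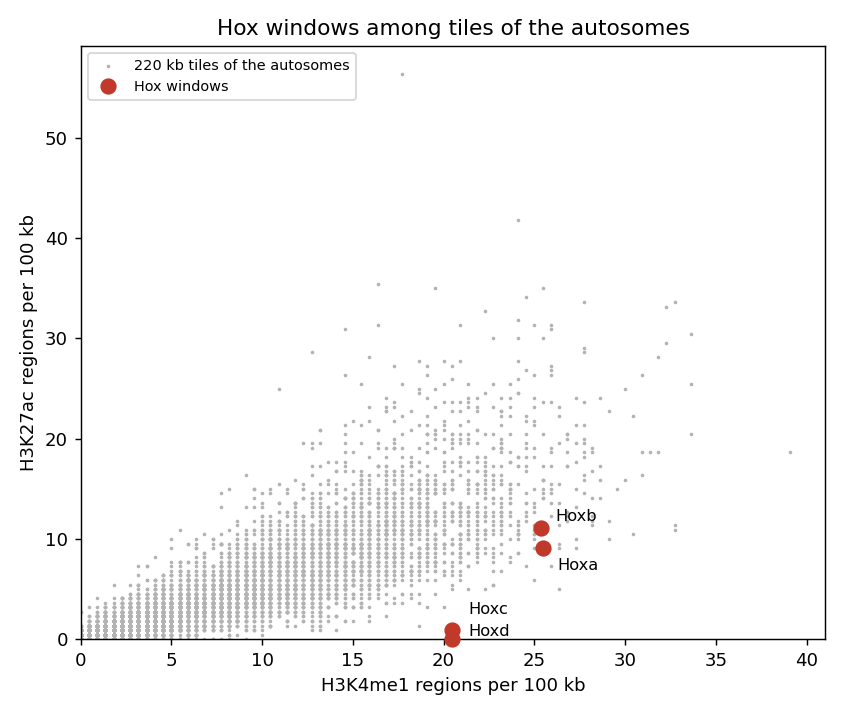
H3K27ac regions against H3K4me1 regions per 100 kb in tiles of 220 kb over the autosomes (grey points) and in the 4 Hox windows (red points). Hoxc and Hoxd sit at the bottom of the plot at 20.5 H3K4me1 regions per 100 kb, below all tiles that are as dense in H3K4me1.

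Hoxa and Hoxb each held very wide H3K27ac regions, and Hoxa also held a larger share of regions of 6-fold or more than the whole list. The median fold was 4.63 in Hoxa (2.51 to 12.6) and 4.14 in Hoxb (2.66 to 11.6), against 3.86 over the whole list. Regions of 6-fold or more numbered 7 of 20 in Hoxa, 5 of 31 in Hoxb and 1 of 2 in Hoxc, against 18.7% of the whole list. Of the 53 H3K27ac regions in the clusters, 4 reached 10-fold (7.55%), against 7.77% of the whole list. By cluster this was 3 of 20 in Hoxa (15%), 1 of 31 in Hoxb (3.23%) and 0 of 2 in Hoxc. With so few regions and no interval computed, these shares are not set apart from the background. By width 7 were 2 kb or wider (13.2%), against 4.04%, and 3 were 4 kb or wider (5.66%), against 0.457%. Both width limits were picked with the values in view. The 3 wide regions ranked 10, 24 and 53 by width among all 93413.

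The widest of all 53 lay in Hoxb at chr11:96164672-96174478. It spanned 9807 bp, rose to 11.6-fold with 43 reads at its summit, and was also the strongest region of Hoxb. It met 5 H3K4me1 regions, which covered 69.5% of it, and its summit lay inside one of them.

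In Hoxa the widest region lay at chr6:52176395-52184807, with 8413 bp, 10.9-fold and 36 summit reads. The strongest region lay just below it at chr6:52166780-52173701, with 6922 bp, 12.6-fold and 49 summit reads. A smaller region between them, of 2055 bp, reached 8.86-fold and met no H3K4me1 region. The remaining region of 10-fold or more lay at chr6:52161885-52164150, with 2266 bp and 10.5-fold. The local background was 1.07 to 1.25 times the genome-wide one beneath 3 of the 4 regions of 10-fold or more. All 4 were also among the 7 that reached 2 kb.

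Joined over gaps of up to 1 kb, these regions formed 1 block of 19.2 kb in Hoxa (chr6:52165593-52184807, 4 regions, 18.3 kb acetylated) and 1 of 16.8 kb in Hoxb (chr11:96161768-96178567, 7 regions, 15.1 kb acetylated). Among 67696 such blocks in the genome they ranked 15 and 37 by acetylated length. In bins of 10 kb, acetylation reached 93.6% of a bin in Hoxa and 82.7% in Hoxb, and passed 50% in 2 bins of each cluster. A further block of Hoxa lay just below the long one, at chr6:52157768-52164150, of 6.38 kb with 5 regions, 4.21 kb acetylated and a summit of 10.5-fold. In the rest of Hoxa no such block was longer than 1.96 kb. Joined over gaps of up to 12.5 kb, the main domain of Hoxa spanned 44.3 kb with 16 regions and that of Hoxb 88.8 kb with 27 regions. They ranked 133 and 115 of 30221 by acetylated length, so both lay within the first 1% (0.440% and 0.381%). Hoxb also had a smaller block nearer its Hoxb1 end at chr11:96209363-96214843, of 5.48 kb with 3 regions and a summit of 6.80-fold.

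The blocks of Hoxa and Hoxb differed in H3K4me1. H3K4me1 covered 34.2% of the Hoxa block and 77.4% of the Hoxb block. Across all 427 H3K27ac regions of 4 kb or more, H3K4me1 covered a median of 91.7% of the region (quartiles 66.7 and 100%). The Hoxa pair, at 38.7% and 34.4%, lay below the lower quartile, and the Hoxb region, at 69.5%, inside the quartiles. In 302 of the 427 (70.7%) the acetylation summit lay inside H3K4me1. It did so in the wide region of Hoxb and in neither of the wide regions of Hoxa. Strong summits in general lay outside H3K4me1: of all H3K27ac summits of 10-fold or more 25.6% lay inside, and of the 4 in the clusters 1 of 3 in Hoxa and 1 of 1 in Hoxb did. Over the whole windows, 39.3% of the acetylated length of Hoxa and 71.3% of that of Hoxb lay inside H3K4me1, against 65.9% of the whole list.

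By number, nearly all acetylated regions of the clusters touched H3K4me1. Of the 53, 48 overlapped H3K4me1 by 1 bp or more (90.6%, exact 95% binomial interval 79.3 to 96.9%), against 71.7% of the whole list. By cluster this was 16 of 20 in Hoxa (80.0%, interval 56.3 to 94.3%), 30 of 31 in Hoxb (96.8%, interval 83.3 to 99.9%) and 2 of 2 in Hoxc. The intervals of Hoxa and Hoxb overlap, and that of Hoxa holds the 71.7% of the whole list, while that of Hoxb lies above it. These intervals, like all that follow, reflect counting error alone: adjacent regions share their source, and PCR copies of a molecule were not told apart. H3K4me1 covered 29.1% of the Hoxa window and 33.2% of Hoxb, against 6.95% of the autosomes. Whether this raised the pooled share of 90.6% was not tested. Without the regions of raised local background in either list the share was 62.2%, where partners were removed as well. The whole-list share under that setting was not computed, so the 62.2% cannot be set against the 71.7%. The summit itself lay inside H3K4me1 in 10 of 20 regions of Hoxa, 23 of 31 of Hoxb and 2 of 2 of Hoxc, against 58.2% of the whole list. A summit free of H3K4me1 with H3K4me1 1 kb to its left and 1 kb to its right was found in 3 regions of Hoxa and 3 of Hoxb, 11.3% of the 53, against 5.85%.

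The reverse share was low in Hoxc and Hoxd, which could hardly be otherwise with 2 and 0 H3K27ac regions there. Its values in this pair, among strong and wide regions too, restate those counts and are no further evidence. Of the H3K4me1 regions, 15 of 56 in Hoxa (26.8%, interval 15.8 to 40.3%) and 28 of 71 in Hoxb (39.4%, interval 28.0 to 51.7%) met H3K27ac, against 33.6% of the whole list, which lies inside both intervals. In Hoxc it was 1 of 45 (2.22%, interval 0.0562 to 11.8%) and in Hoxd 0 of 43 (interval 0 to 8.22%), both below that background. The same low counts were bound to appear among strong H3K4me1 regions, and wide ones were few in Hoxc and Hoxd. Regions of 2 kb or more made up 10 of 56 in Hoxa, 14 of 71 in Hoxb, 4 of 45 in Hoxc and 1 of 43 in Hoxd, against 13.8% of the whole list. Of these wide regions 78.7% of the whole list met H3K27ac, and 6 of 10 in Hoxa, 11 of 14 in Hoxb, 1 of 4 in Hoxc and 0 of 1 in Hoxd did. Among H3K4me1 regions of 5-fold or more, 62.1% of the whole list met H3K27ac, and 8 of 20 in Hoxa, 12 of 25 in Hoxb, 1 of 15 in Hoxc and 0 of 12 in Hoxd did. When each H3K4me1 region was given the genome-wide share of its class of fold and width (6 classes of each), the clusters would hold 19.4 acetylated H3K4me1 regions in Hoxa, 26.3 in Hoxb, 14.7 in Hoxc and 12.9 in Hoxd. The observed numbers were 15, 28, 1 and 0, the last pair again set by the H3K27ac counts. The 5-fold limit and the classes were picked with the values in view.

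H3K4me1 regions without H3K27ac had a higher median fold in the clusters than over the whole list. Their median fold was 4.21 in Hoxa (41 regions), 4.0 in Hoxb (43), 4.22 in Hoxc (44) and 4.12 in Hoxd (43), against 3.58 (quartiles 2.95 and 4.63) for the 102942 such regions of the whole list. Each of these medians lay inside the quartiles of the whole list. In Hoxc and Hoxd this class holds 44 of 45 and 43 of 43 H3K4me1 regions, whereas the whole-list class leaves out the regions that met H3K27ac. Over all H3K4me1 regions, met or not, the medians were 4.23 in Hoxc and 4.12 in Hoxd, against 4.12. The higher median in Hoxc and Hoxd thus restates that their H3K4me1 regions lack H3K27ac. Their median widths were 736, 665, 763 and 828 bp, against 493 bp. Where H3K27ac was met, the median fold was 5.05 in Hoxa and 4.63 in Hoxb, both below the 5.69 of the whole list and inside its quartiles of 4.37 and 7.16. The pair of classes was thus closer together in these clusters than genome-wide.

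**Figure D4:**
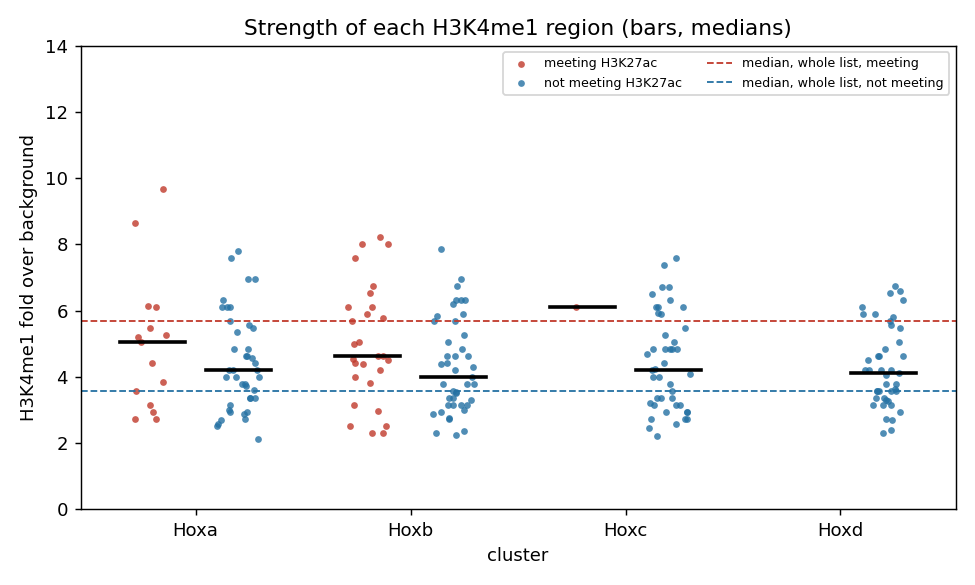
Fold over background of each H3K4me1 region by cluster, split by whether it met H3K27ac (red) or not (blue); black bars are medians and dashed lines the medians of the whole list. The blue medians of all 4 clusters, 4.0 to 4.22, lie above the blue dashed line at 3.58.

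The strongest H3K4me1 region of the clusters lay in Hoxa at chr6:52163732-52166586, over the lower edge of the acetylated block, with 9.69-fold, 45 summit reads and 2855 bp, and met 2 H3K27ac regions. The widest of Hoxa lay at chr6:52156923-52161640 (4718 bp, 5.20-fold) and met 4. In Hoxb 1 region was both strongest and widest, at chr11:96192665-96197812 (5148 bp, 8.21-fold), and met 1 H3K27ac region of 215 bp. These 3 leading H3K4me1 regions thus all met H3K27ac, as did 78.7% of H3K4me1 regions of 2 kb or more over the whole list.

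In Hoxc the strongest H3K4me1 region, at chr15:102916163-102918608 (7.60-fold, 44 summit reads), lay at the upper edge of the window and met no H3K27ac. The widest, at chr15:102827806-102832066 (4261 bp, 6.11-fold), held both acetylated regions of the cluster. These lay at chr15:102830117-102830329 (3.84-fold, 12 summit reads) and chr15:102830858-102831345 (6.50-fold, 21 summit reads). The acetylation of Hoxc was thus a single spot of 1.23 kb inside its widest H3K4me1 region. In Hoxd the strongest region lay at chr2:74519970-74521345 (6.74-fold, 31 summit reads) and the widest at chr2:74599316-74602242 (2927 bp, 4.50-fold), and neither met H3K27ac. That widest region was also the last of the window, with 57.8 kb free of H3K4me1 above it on the Hoxd1 side.

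In the Hoxa and Hoxb windows the longest stretch without H3K27ac lay on the side of the highest-numbered genes. In Hoxa the last H3K27ac region ended at 52184807. The 85.2 kb above it, toward Hoxa13, is free of H3K27ac by definition and held 20 H3K4me1 regions with a median of 4.74-fold. The other side was also free of H3K27ac over 58.4 kb below the first region, and held 9 H3K4me1 regions with a median of 2.95-fold. In Hoxb the gene order runs the other way, and the 138.6 kb before the first H3K27ac region, toward Hoxb13, held 19 H3K4me1 regions with a median of 5.69-fold. Between the first and the last H3K27ac region, H3K4me1 had a density of 35.4 per 100 kb in Hoxa and 38.1 in Hoxb. On the side of the highest-numbered genes it was 23.5 and 13.7, still above the 6.15 of the autosomes. On the side of the lowest-numbered genes it was 15.4 in Hoxa and 13.02 in Hoxb, the latter from 1 region in 7.68 kb. Of these 4 outer parts, 1 was thus denser in H3K4me1 than Hoxc and Hoxd (20.5 each) and the other 3 less dense. How far each window reaches past its outermost genes in mm9 was not examined, so these stretches cannot be read as genes that lack acetylation.

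H3K27ac appeared in no 10 kb bin without H3K4me1 in these clusters. H3K4me1 was itself in most bins of the acetylated clusters, 20 of 22 in Hoxa and 20 of 28 in Hoxb. The same count was not made over the genome, so whether this is particular to the clusters cannot be said. In Hoxa 7 of 22 bins held both marks and 13 held H3K4me1 alone, and in Hoxb 12 of 28 held both and 8 H3K4me1 alone. In Hoxc 1 of 22 held both and 17 H3K4me1 alone, and in Hoxd 13 of 21 held H3K4me1 alone. Bins with neither mark numbered 2, 8, 4 and 8 in Hoxa, Hoxb, Hoxc and Hoxd. The longest stretch without H3K4me1 was 15.2 kb in Hoxa, 44.4 kb in Hoxb, 40.4 kb in Hoxc and 57.8 kb in Hoxd.

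Reads at the summits show what these libraries could call. The weakest called summit in the whole H3K27ac list held 8 reads over a background of 2.38, and the H3K27ac summits in Hoxa and Hoxb had a median of 15 and 14 reads (9 to 49 and 8 to 43). The weakest H3K4me1 summit in the whole list held 10 reads over 3.75. A raised local background, above 1.05 times the genome-wide one, was found at 6 of 20 H3K27ac regions in Hoxa, 10 of 31 in Hoxb and 0 of 2 in Hoxc, against 26.2% of the list. Among H3K4me1 regions it was found at 15 of 56 in Hoxa, 23 of 71 in Hoxb, 13 of 45 in Hoxc and 10 of 43 in Hoxd, against 36.8%. At the called summits of the windows, the local background reached 1.59 times the genome-wide one for H3K27ac and 2.44 times for H3K4me1. It could be solved only at called summits, so none is known for H3K27ac in Hoxd. H3K27ac in Hoxd below the calling limit would not appear in these lists, and that limit was not examined there.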

How the data were processed

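Each mark was profiled in 1 library of sorted mouse stem cells, with an input library that was not analysed here. Per the submitters' processing notes the tools were Bowtie2 2.0.6 and MACS2 2.0.10.20131216 and the build mm9. Not given in the sources used here are mapping filters, duplicate handling, caller options and the control. Each deposited list comes from a single library. It gives the authors' fold (a ratio of summit pileup over local background), the summit's −log10 p and its −log10 q as deposited, and the summit offset. The authors' score was left out, since it is only a multiple of the −log10 q, rounded down. The lowest −log10 q is 1.30 for H3K27ac and 1.31 for H3K4me1.

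Regions sharing at least 1 bp with a window were members, and 1 bp with the other mark counted as meeting it. No region crossed a window edge or overlapped another of its list. Starts are counted from 1. Summit reads and local background were solved from fold and −log10 p, assuming that fold is (reads + 1)/(background + 1) and p a Poisson tail. All regions fitted within 0.001, and on simulated data made with the same formulas 100% of 93413 and 155027 summits were returned. Shares of regions meeting the other mark have exact Clopper-Pearson 95% intervals. Flanks and tiles ran on autosomes up to the last region. Regions named are the strongest and the widest per cluster and mark and every H3K27ac region of 10-fold or more. Others, and the printed sequences, were chosen after their values were seen. The members and lists were chosen with earlier results of these data known. Alternatives changed the q limit, joining, window limits, overlap rule, list length and local background. Scripts ran in Python 3.11.15 with matplotlib 3.10.9, scipy 1.17.1, pandas 2.3.3 and numpy 2.4.6.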

Additional observations from a re-analysis of the deposited data

How the results depend on the processing

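Leaving out regions of raised local background was chosen after the results had been seen. In each setting Hoxa and Hoxb each held more H3K27ac regions than Hoxc. Hoxd held 0 in each, which could not change, since the settings only dropped, joined or reassigned called regions. Hoxb held more than Hoxa in each setting except a −log10 q of at least 10. Counts are given in the order Hoxa, Hoxb, Hoxc and Hoxd where they changed by over 1.5 times. At a −log10 q of at least 5, H3K27ac regions numbered 11, 14 and 1, and H3K4me1 regions 28 in Hoxc and 26 in Hoxd. At 10, H3K27ac regions numbered 7, 5 and 1, and H3K4me1 regions 19, 26, 14 and 12. Joined over 1 kb, H3K27ac regions numbered 9, 16 and 1, and H3K4me1 regions 35, 33, 29 and 23. The share of H3K27ac regions meeting H3K4me1 (90.6% as reported) was 73.6% with 50% of the shorter region shared, 100% when partners within 1 kb counted, 76.9% for both lists from a −log10 q of 10 and 62.2% without raised background. The share of H3K4me1 regions meeting H3K27ac (20.5%) became 14.2% from a −log10 q of 5 and 13.6% without raised background. Whole-list shares were not computed under these settings, so the changed shares have no background beside them. Of 62 alternative values, 25 moved and 37 did not, where a count moved when it changed by over 1.5 times and a share when it left the exact 95% interval of the reported share (79.3 to 96.9% and 15.3 to 26.5%). The 37 include values that could not move. These are the H3K27ac counts of Hoxd and all counts by summit, as no region crossed a window edge. Fewer regions enter under stricter limits, and for the remaining moves the cause was not tested. No paired analysis was possible because a mark was measured in 1 library only.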
